A study of Mus musculus with 17 samples.

Results

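The adult globin mRNAs Hba-a1, Hba-a2, Hbb-bs and Hbb-bt were followed in the plasma cell-free RNA (cfRNA) of mice from the MHU-1 mission to the International Space Station. They were chosen by gene name and make up 4 of the 49585 genes in the files, of which 12605 had a count in any library and 272 had enough reads to be tested. Mice were kept in flight in microgravity (MG, treatment Microgravity, 6 libraries), in flight on a rotating platform that supplied gravity (AG, treatment Artificial-1G, 6 libraries) or on the ground (GC, treatment Ground control, 5 libraries). All mice were wild type, of the strain C57BL/6J and aged 13 weeks, and each library came from 1 mouse. MG against AG addresses gravity within the flight, MG against GC the flight as a whole, and AG against GC what remains of the flight when gravity is supplied, and each group serves in more than 1 of these comparisons.

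Hemoglobin, the oxygen carrier of red blood cells, is built from alpha and beta globin chains in equal numbers, each holding a heme group. Globin mRNAs dominate the transcripts of erythroblasts and reticulocytes, the nucleated and the young enucleated red cells, and are lost as the red cell matures. Because red cells and their fragments are present in blood, globin mRNA is a regular component of plasma RNA, and in plasma the number of releasing cells and the RNA released per cell cannot be told apart.

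Each chain is encoded by a pair of adult genes that are nearly the same in sequence. In the GENCODE M21 annotation of GRCm38 (mm10), both alpha globin genes were on the plus strand of chromosome 11, Hba-a1 at chr11:32283511-32284465 and Hba-a2 at chr11:32296489-32297298. Both beta globin genes were on the minus strand of chromosome 7, Hbb-bs at chr7:103826534-103828096 and Hbb-bt at chr7:103812524-103813996. Every gene had 3 exons, with a coding sequence of 429 bases in the alpha genes and 444 bases in the beta genes. Within each pair the coding sequences differed at a single base, C381T from Hba-a1 to Hba-a2 and C417T from Hbb-bs to Hbb-bt, with positions counted from 1 at the A of the start codon. Both substitutions were at the third base of a codon and were synonymous. The coding bases that can share a 36-base read with the substitution follow, since only a read within them can tell the copies of a pair apart by coding sequence. The substituted base is in capitals. The lines run 5′ to 3′ along the mRNA, from coding position 346 to 416 for the alpha genes and from 382 to 444 for the beta genes.
Hba-a1: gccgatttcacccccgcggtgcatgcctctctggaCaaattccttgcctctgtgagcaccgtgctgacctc
Hba-a2: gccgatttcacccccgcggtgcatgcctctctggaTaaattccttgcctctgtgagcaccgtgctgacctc
Hbb-bs: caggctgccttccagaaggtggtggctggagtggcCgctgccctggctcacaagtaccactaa
Hbb-bt: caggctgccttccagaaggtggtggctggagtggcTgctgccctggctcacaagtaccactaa

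The shared sequence limited how reads could be divided within a pair. Of all 36-base windows in the Hba-a2 mRNA, 90.0% also occurred in Hba-a1, and of those in Hba-a1, 70.3% occurred in Hba-a2. The beta mRNAs shared less, 66.6% of the windows of Hbb-bs and 59.1% of those of Hbb-bt. Within the coding sequence, 90.9% of the windows of either alpha gene and 93.2% of those of either beta gene were common to the pair, and the windows of only 1 copy were mostly in or next to the untranslated regions in the other 3 genes but were largely coding in Hba-a2 (36 of 52). How reads with several matches were counted is not given in the sources used here, so the split within a pair is uncertain. A sum of the pair removes the split and would still depend on whether such reads were counted at all. The reads assigned were not in proportion to the windows found in only 1 copy: Hba-a2, with 52 such windows, held 14517 reads over all libraries and Hba-a1, with 197, held 3570. Hbb-bs held 6054 reads with 198 such windows and Hbb-bt 3344 reads with 273.

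Counts summed to between 84657 and 277682 per library (median 178072 in AG, 116460 in MG and 175527 in GC), and the 4 most abundant genes, Tmem38b, Polr2m, Lars2 and Rn18s-rs5, took 86.9% to 91.7% of them in AG, 70.6% to 83.5% in MG and 76.9% to 83.1% in GC. The range in AG did not overlap those of the other groups. Fold changes therefore depended on the scaling. With the trimmed mean of M-values (TMM), which sets the bulk of genes level between libraries, the median log2 fold change of all tested genes was 0.17 for MG against AG and -0.21 for AG against GC, and with the total count alone it was 1.27 and -1.14. Levels are given below as TMM-normalized CPM, reads scaled to a common library size, and fold changes are read against these medians.

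All 4 adult globin mRNAs were detected in 17 of 17 libraries and were among the most abundant transcripts of plasma. Together they held 27485 reads, 1.00% of all counts. Hba-a2 ranked between 5 and 27 among all genes of a library (median rank 9), Hbb-bs between 7 and 47 (median 15), Hba-a1 between 14 and 74 (median 20) and Hbb-bt between 13 and 92 (median 26). Compared per length, as RPKM (reads divided by gene length and mapped total), Hba-a2 was the highest of the 4 in 17 of 17 libraries, and Hbb-bs came next in 15. The lowest place changed between libraries, falling to Hbb-bt in 9 and to Hba-a1 in 8. The mean RPKM of Hba-a1 and Hbb-bt differed by less than the SD of either gene in every group, with 73.9 ± 50.0 and 80.2 ± 61.2 (SD) over the 6 libraries of AG, 57.9 ± 34.4 and 43.7 ± 29.2 over the 6 of MG, and 99.2 ± 74.6 and 147 ± 142 over the 5 of GC.

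Hba-a2, the alpha globin gene with the most reads, ranged in TMM-normalized CPM from 5860 to 10613 in AG (median 8925) and from 1484 to 9884 in MG (median 4511). In GC, replicates 1 to 5 were at 8152, 2365, 4671, 4184 and 2997 CPM. In 4 of 6 MG libraries the level was below that of every AG library, while MG 3 and MG 4 were within the AG range. Hba-a1, its paralog, ranged from 840 to 3331 CPM in AG (median 1687) and from 321 to 2199 in MG (median 1144), and its GC libraries were at 2102, 956, 1447, 913 and 1056. The groups overlapped for both alpha genes in all 3 comparisons.

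Hbb-bs, the beta globin gene with the most reads, ranged from 1756 to 6399 CPM in AG (median 2511) and from 666 to 4763 in MG (median 1893), and its GC libraries were at 4722, 1739, 2074, 1114 and 1352. Most libraries of the 3 groups fell in the same interval, with 1 library of each group, AG 1, MG 4 and GC 1, well above the others. Hbb-bt, the other beta globin gene, ranged from 727 to 3436 CPM in AG (median 1654) and from 217 to 1623 in MG (median 680). In GC it was at 3240, 934, 1565, 1575 and 1073. Hbb-bt was lower in 4 of 6 MG libraries than in any AG library and likewise lower in 4 of 6 than in any GC library, with MG 1 and MG 4 inside both ranges. Thus no member had groups that did not overlap, which 1.84% of the tested genes had for MG against AG, 0.368% for MG against GC and 1.84% for AG against GC.

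**Figure D1:**
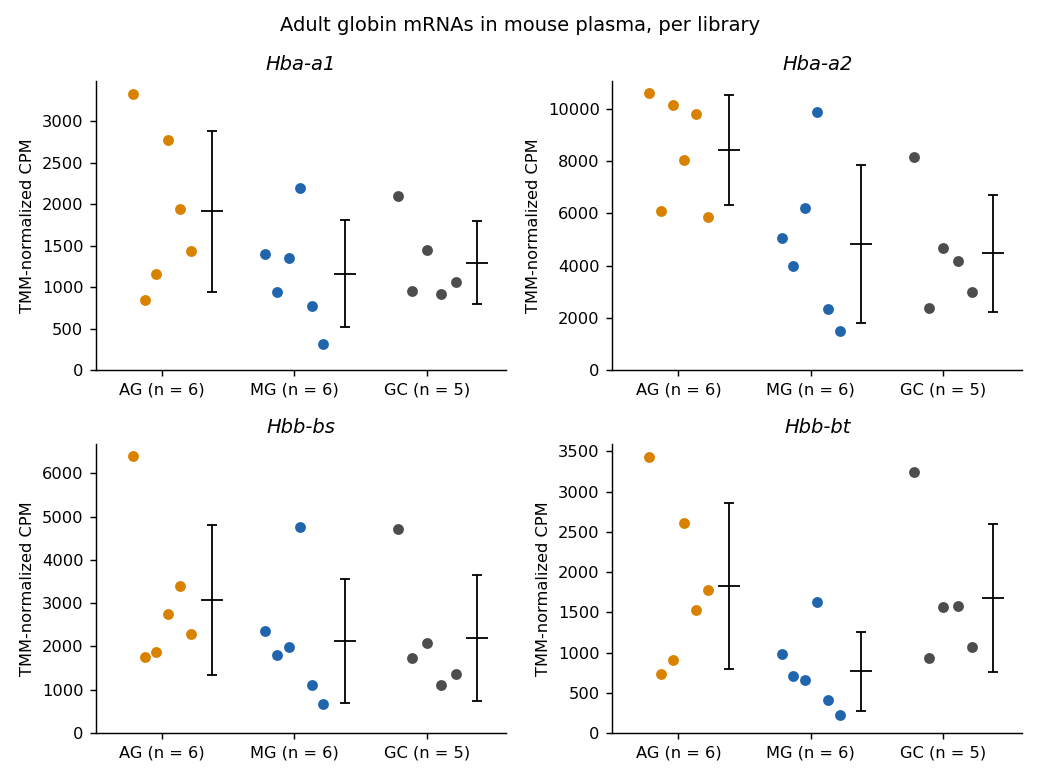
TMM-normalized CPM of each adult globin mRNA (vertical axis, linear from 0) in the AG (n = 6), MG (n = 6) and GC (n = 5) libraries, in replicate order from left to right, with the mean and SD of each group in black. MG replicate 4 was the highest and MG replicate 6 the lowest MG library for all 4 mRNAs, and AG 1 and GC 1 were the highest of their groups.

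In TMM-normalized CPM, AG 1, MG 4 and GC 1 were the highest of their groups for all 4 mRNAs, and MG 6, with 335 adult globin reads in all, was the lowest of the 17. On this scale the lowest AG and GC libraries differed between members, with GC 4 lowest of GC for Hba-a1 and Hbb-bs and GC 2 for Hba-a2 and Hbb-bt. By RPKM, MG 1 was the highest MG library and GC 4 the lowest GC library for all 4 mRNAs. Over the 17 libraries, Spearman's rho between members ran from 0.576 for Hba-a2 and Hbb-bt to 0.941 for Hba-a1 and Hbb-bs in TMM-normalized CPM, and from 0.593 to 0.931 as shares of all counts. These correlations are descriptions: the values of a library share its depth and scaling factor, and paralogs can share reads.

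For MG against AG, all 4 adult globin mRNAs had lower fitted levels in MG, and none passed an adjusted p of 0.05, a threshold that 0% of the 272 tested genes passed, with 36 genes at an unadjusted p under 0.05. DESeq2 called 9 of the 272, edgeR's exact test 5 and limma on RPKM 0, and no member was among them. The largest difference was that of Hbb-bt, at 766 ± 495 CPM in MG and 1832 ± 1033 in AG (SD, n = 6 each). In edgeR's quasi-likelihood test its log2 fold change was -1.26 (SE 0.48, adjusted p = 0.244), with an unadjusted p of 0.0155. Hbb-bt was the only member past the criterion that the study used for its gene lists, an unadjusted p under 0.05 with a fold change over 1.5, which 8.46% of the tested genes passed with a lower level in MG. It passed in 23 of the 27 alternative fits, and not without AG 1, with the total count alone, with limma on RPKM or with the paralogs summed. The fits without a GC library left its log2 fold change between -1.25 and -1.23, so they checked this comparison little. Of the alpha genes, Hba-a2 had a log2 fold change of -0.80 (SE 0.42, adjusted p = 0.403) and Hba-a1 of -0.72 (SE 0.44, adjusted p = 0.500) in the same test. Hba-a2 passed the criterion of the study in 3 of the 27 alternative fits (DESeq2, the replicate block and without MG 4) and Hba-a1 in 1 (without MG 4). Hbb-bs was at -0.54 (SE 0.47, adjusted p = 0.684) and passed in 0.

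The direction between MG and AG depended on the scaling for 3 of the 4 mRNAs. With the total count alone as the scale, the log2 fold changes were 0.41 for Hba-a1, 0.28 for Hba-a2, 0.53 for Hbb-bs and -0.12 for Hbb-bt, and the groups' mean share of all counts was 0.984% ± 0.433 in AG and 1.17% ± 0.645 in MG (SD, n = 6 each). Relative to the median of all tested genes the scalings gave much the same values: -0.98 with TMM and -0.99 with the total count for Hba-a2, -0.89 and -0.86 for Hba-a1, -0.71 and -0.74 for Hbb-bs, and -1.43 and -1.39 for Hbb-bt. A change of scaling moves all genes of a library together, and subtracting the median removes most of that move. The likeness was therefore largely set in advance and is not separate evidence. All 4 mRNAs were below the median of all tested genes in each of the 27 alternative fits, which reuse the same libraries.

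For MG against GC, the alpha genes and Hbb-bs had fitted differences smaller than their SE, and Hbb-bt was lower in MG. The mean of Hbb-bt was 766 ± 495 CPM over the 6 MG libraries and 1678 ± 920 over the 5 GC libraries (± SD). Its log2 fold change in edgeR's quasi-likelihood test was -1.13 (SE 0.50, adjusted p = 0.969), with an unadjusted p of 0.0325, so that no member passed the adjusted threshold, as 0% of the tested genes did, with 12 at an unadjusted p under 0.05 and 0 called by DESeq2, edgeR's exact test or limma. It passed the criterion of the study, which 0.735% of the tested genes passed with a lower level in MG, that is 2 genes. With a higher level in MG, 3.68% passed. Hbb-bt passed in 20 of the 27 alternative fits, and not without MG 2, 3, 5 or 6, without GC 1, with the total count alone or with the paralogs summed. The fits without an AG library left its log2 fold change between -1.13 and -1.12, so they checked this comparison little. The other log2 fold changes were 0.11 (SE 0.44) for Hba-a2, -0.16 (SE 0.45) for Hba-a1 and -0.06 (SE 0.49) for Hbb-bs, each with an adjusted p of 0.994 in the same test. The signs of these 3 were not stable when libraries were left out.

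For AG against GC, all 4 mRNAs had higher fitted levels in AG with TMM, and none passed either call rule. The adjusted threshold was passed by 1.47% of the tested genes, and the criterion of the study by 6.25% with a higher and 5.51% with a lower level in AG. Hba-a2 came closest, with means of 8429 ± 2090 CPM over the 6 AG libraries and 4474 ± 2252 over the 5 GC libraries (± SD), and 3 of 6 AG libraries lay above every GC library. Its log2 fold change in edgeR's quasi-likelihood test was 0.91 (SE 0.45, adjusted p = 0.407), with an unadjusted p of 0.0523. It passed the criterion of the study in 8 of the 27 alternative fits, namely with DESeq2, with the replicate block and without AG 2, AG 6, MG 3, MG 4, MG 6 or GC 1. Hba-a1 was at 0.56 (SE 0.46, adjusted p = 0.625), Hbb-bs at 0.48 (SE 0.50, adjusted p = 0.708) and Hbb-bt at 0.13 (SE 0.50, adjusted p = 0.899). With the total count alone, all 4 turned negative, from -0.94 for Hbb-bt to -0.13 for Hba-a2, against a median of -1.14 over all tested genes. Hba-a1, Hba-a2 and Hbb-bs were above the median of all tested genes in each of the 27 alternative fits and Hbb-bt in 25. These fits reuse the same libraries, and a change of scaling moves the median and the members together.

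**Figure D2:**
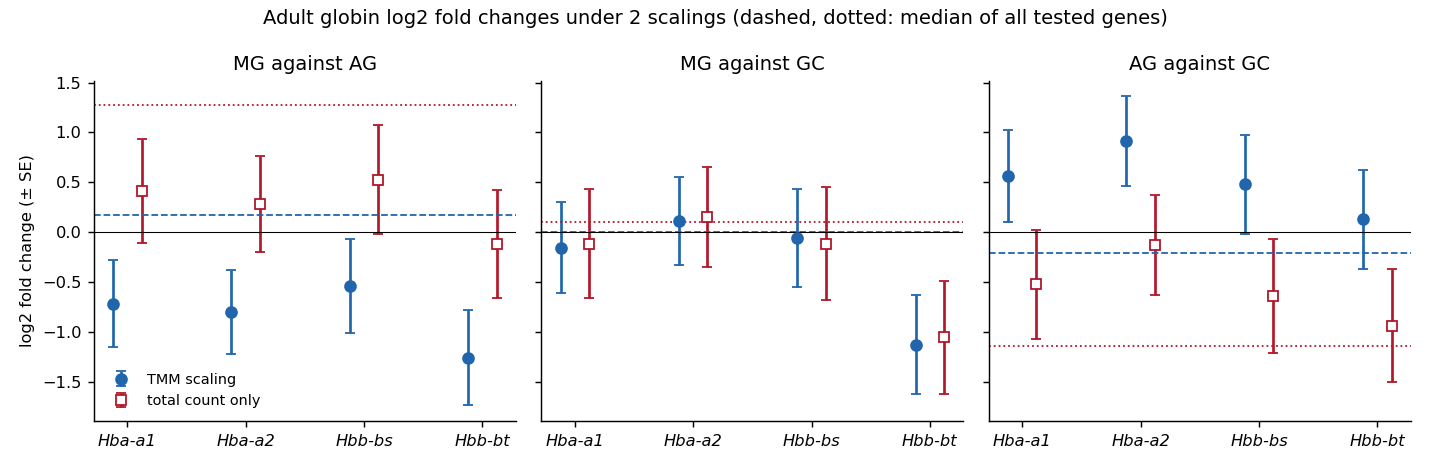
Log2 fold change with its SE for each adult globin mRNA in the 3 comparisons, with TMM scaling (filled circles) and with the total count alone (open squares), on a linear axis. The dashed (TMM) and dotted (total count) lines are the median over all tested genes, which moves from 0.17 to 1.27 in MG against AG and from -0.21 to -1.14 in AG against GC, and the members move with it.

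The paralogs were also summed before the fit, which removed the split between copies. In edgeR's quasi-likelihood test, alpha globin as a whole had a log2 fold change of -0.80 for MG against AG (adjusted p = 0.407), 0.08 for MG against GC (adjusted p = 0.991) and 0.88 for AG against GC (adjusted p = 0.379). Beta globin as a whole was at -0.78 (adjusted p = 0.491), -0.40 (adjusted p = 0.991) and 0.38 (adjusted p = 0.786) in the same order. Neither sum passed either call rule in any comparison, so that Hbb-bt passed the criterion of the study only as a gene of its own, with the reads divided within the pair as deposited.

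Within a library, the makeup of the globin reads does not depend on the scaling. Alpha globin reads outnumbered beta globin reads in every library. Their ratio was 1.42 to 4.07 in AG (mean 2.41 ± 0.94 SD, n = 6), 1.89 to 2.86 in MG (2.12 ± 0.37 SD, n = 6), and 1.29, 1.24, 1.68, 1.90 and 1.67 in GC replicates 1 to 5 (1.56 ± 0.28 SD, n = 5). AG overlapped both other groups, with GC 1 and GC 2 below every AG library, whereas in MG 5 of 6 libraries lay between 1.89 and 2.05 and MG 3 stood above them. By reads MG and GC overlapped, with MG 4 at 1.892 and GC 4 at 1.896. As a ratio of summed RPKM, which corrects for the length of each gene, the lowest MG value was 2.06 and the highest GC value 2.004, so that MG and GC did not overlap on this measure, by a narrow margin. With the reads of Hbb-bs alone as beta globin the groups overlapped, with a mean ratio of 2.89 in MG and 2.92 in GC. The difference was not tested.

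Hbb-bt made up a smaller part of the adult globin reads in MG than in GC. It was 6.41% to 10.04% in MG (mean 8.62% ± 1.27 SD, n = 6), and 17.8%, 15.6%, 16.04%, 20.2% and 16.6% in GC replicates 1 to 5 (17.2% ± 1.86 SD, n = 5). The exact binomial 95% intervals, which cover counting error only, were 8.72% to 11.5% for the highest MG library, MG 1, and 13.8% to 17.4% for the lowest GC library, GC 2. In AG the libraries fell on both sides, with 14.4%, 16.2% and 15.6% in AG 1, 4 and 6, near the GC values, and 7.71%, 6.47% and 9.18% in AG 2, 3 and 5, within the MG values. As a share of the beta pair, Hbb-bt was 24.5% to 29.4% in MG and 34.95% to 58.6% in GC, with no overlap, and 29.3% to 48.8% in AG. Both shares rest on the same Hbb-bt reads, which also enter the alpha to beta ratio, so they are not separate findings. The shares of Hba-a1, Hba-a2 and Hbb-bs in adult globin overlapped between MG and GC. How often such shares do not overlap over all genes was not computed, and for TMM-normalized CPM it was 0.368% of the tested genes. These shares were not tested, and a share of the pair depends on how shared reads were assigned.

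The alpha pair showed no such separation. Hba-a1 was 10.3% to 25.7% of the alpha reads in AG (mean 18.01% ± 6.22 SD, n = 6), 17.8% to 24.6% in MG (19.9% ± 2.76 SD, n = 6), and 20.5%, 28.8%, 23.7%, 17.9% and 26.1% in GC (23.4% ± 4.32 SD, n = 5). AG 2, AG 3 and AG 5, at 12.1%, 10.3% and 16.5%, were below every MG and GC library. AG 2 and AG 3 also had the highest alpha to beta ratios of AG, at 2.79 and 4.07.

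**Figure D3:**
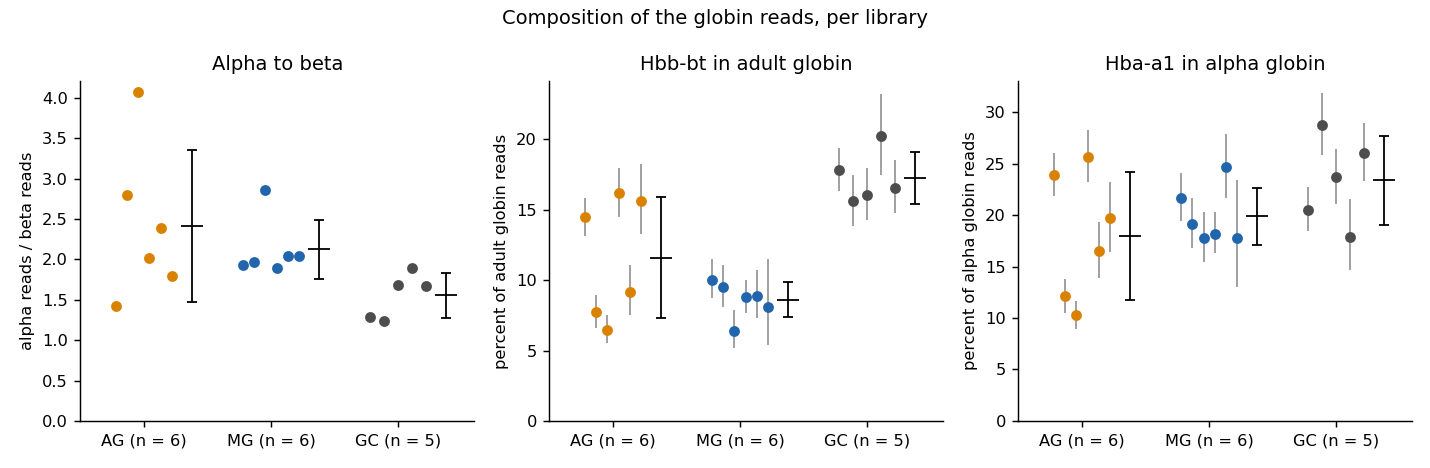
Alpha to beta globin reads (left), Hbb-bt as a percent of adult globin reads (middle) and Hba-a1 as a percent of alpha globin reads (right) in each library, in replicate order within AG, MG and GC, on linear axes from 0, with exact binomial 95% intervals in grey on the percents and the group mean and SD in black. The Hbb-bt percent is at most 10.04% in MG and at least 15.6% in GC, and AG libraries lie at both levels.

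The sum of the 4 mRNAs ranged from 9423 to 23778 CPM in AG (median 15123) and from 2688 to 18470 in MG (median 8605). GC replicates 1 to 5 were at 18216, 5994, 9757, 7785 and 6479 CPM. In 3 of 6 MG libraries the sum was below that of every AG library, but the groups overlapped. As a percent of all counts the AG and MG ranges nearly coincided at their upper ends, at 0.523% to 1.81% in AG and 0.150% to 1.95% in MG, and GC spanned 0.398% to 2.95%. Outside the 4 most abundant genes, adult globin was 9.54% ± 3.10 (SD, n = 6) of counts in AG, 5.14% ± 2.95 over the 6 libraries of MG and 5.98% ± 4.05 over the 5 of GC. The higher place of AG on this scale moved with the larger share of the 4 genes in AG, and the part of that share in the result was not tested.

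The embryonic and other globin genes were near or at 0. Of the 12 in the table, 7 had no count in any library, including the embryonic alpha-like Hba-x and the embryonic beta-like Hbb-y and Hbb-bh1, which allows a level of up to 1.09 CPM over all libraries together. The 5 with counts held between 0 and 8 reads per library in all. Mb, the oxygen store of muscle, had 21 reads over the 17 libraries, the pseudogene Hba-ps4 had 11, the theta-like gene Hbq1b had 8, Cygb, a globin of non-blood tissues, had 3 and Hbb-bh3 had 2. None had enough reads to be tested in the main fit. The same held for all genes of the list of globin regulators, among them the erythroid transcription factors Gata1, with 6 reads over all libraries, and Klf1, with 0. In the fit of all genes with at least 5 reads, 1 regulator passed the criterion of the study with a higher level in MG than in AG. In AG against GC, 1 passed with a higher and 1 with a lower level. Of the 6270 genes in that fit, 819 and 764 passed in these comparisons.

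Genes that act with the globins in the red cell were compared in the same fit. Of the 18 genes of heme synthesis and iron handling, 5 were tested. None passed the adjusted threshold. For MG against AG, Alas2, the erythroid first enzyme of heme synthesis, had a log2 fold change of -1.32 (SE 0.48, unadjusted p = 0.0120), at 163 ± 112 CPM in MG and 405 ± 250 in AG, and Slc25a37, the mitochondrial iron importer, of -1.54 (SE 0.50, unadjusted p = 0.00578). Fth1, the ferritin heavy chain, which stores iron in many cell types, had one of 0.78 (SE 0.35, unadjusted p = 0.0377). These 3 passed the criterion of the study, which 13.2% of all tested genes passed in either direction. With the total count alone, Alas2 (-0.31) and Slc25a37 (-0.61) did not pass, and Fth1, at 1.84, passed the adjusted threshold (adjusted p = 0.0182 in edgeR's quasi-likelihood test), as did 58 of the 272 tested genes on that scale, whose median was 1.27. Neither Alas2 nor Slc25a37 passed with limma on RPKM. Alas2 also did not pass without AG 1, and Fth1 passed in 17 of the 27 alternative fits. For AG against GC, Slc25a37 alone of the 5 passed it, at 1.11 and in 15 of the 27 alternative fits, while Fth1 passed with a lower level in AG with relative log expression factors and with the total count alone, and for MG against GC none did, where 11.8% and 4.41% of all tested genes passed.

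Of the 19 red cell membrane genes, 3 were tested, and for MG against AG Epb41, the band 4.1 protein of the membrane skeleton, at -1.08 (SE 0.43), and Slc4a1, the anion exchanger band 3, at -1.50 (SE 0.58), passed the criterion of the study and not the adjusted threshold. Neither passed with all genes of at least 5 reads, with limma on RPKM or with the total count alone, where they were at -0.01 and -0.39. None of the 3 passed it in the other comparisons with TMM, and 1 passed with a lower level in AG than in GC with the total count alone. Over the 27 alternative fits, up to 2 genes of the list passed with a lower level in MG than in GC and up to 1 with a higher level in AG than in GC. Of the 25 red cell enzymes and late erythroid genes, 6 were tested, and their log2 fold changes were all negative for MG against AG, with a median of -1.34. Of these, 3 passed the criterion of the study and none the adjusted threshold: Bpgm, which makes the 2,3-bisphosphoglycerate that lowers the oxygen affinity of hemoglobin, at -1.68 (SE 0.43, adjusted p = 0.0583 in edgeR's quasi-likelihood test), Rnf10, a ubiquitin ligase, at -1.53 (SE 0.38, adjusted p = 0.0583), and Ube2o, the enzyme that clears ribosomes from reticulocytes, at -1.43 (SE 0.40, adjusted p = 0.0896). The criterion was passed by 8.46% of all tested genes with a lower level in MG. In the 27 alternative fits, Bpgm passed the adjusted threshold in 7, Rnf10 in 6 and Ube2o in 3. Over all tested genes, the calls numbered 9 of 272 with DESeq2, 10 of 261 without MG 4 and 58 of 272 with the total count alone. With the total count alone, 4 of the 6 stayed negative and none passed the criterion of the study, and all 6 were below the median of all tested genes.

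For AG against GC, the same 6 genes all had positive log2 fold changes, with a median of 1.15, against -0.21 over all tested genes. Over all tested genes, 1.47% passed the adjusted threshold, and 6.25% passed the criterion of the study with a higher level in AG. Bpgm passed the adjusted threshold, at 1.85 (SE 0.46, adjusted p = 0.0335), with means of 363 ± 65.8 CPM over the 6 AG libraries and 101 ± 53.0 over the 5 GC libraries (± SD). It passed in 16 of the 27 alternative fits, and not with the total count alone, all genes of at least 5 reads, limma on RPKM or only AG and GC in the fit, nor without AG 1, 3 or 4 or GC 1, 2, 3 or 5. With the total count alone none of the 6 passed either rule, and 4 of 6 stayed positive. Rnf10, at 1.44 (SE 0.40, adjusted p = 0.0659), and Ube2o, at 1.08 (SE 0.42, adjusted p = 0.290), passed the criterion of the study only, and in the alternative fits the adjusted threshold was passed by Rnf10 in 2 and by Ube2o in 0. For MG against GC none of the 6 passed it. AG libraries enter both comparisons, so the lower values in MG and the higher values in AG against GC are not separate evidence. Over the 27 alternative fits, the number of genes of this list past the criterion of the study in these directions ran from 0 to 4 in either comparison.

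The genes most like the summed adult globins over the 17 libraries included Alas2, Fech and Epb41 of the red cell lists. By Spearman's rho with the summed level, the first 6 of the 268 other tested genes included Dcaf12 at 0.885, Fam46c and Alas2, both at 0.855, Fech, which inserts iron into heme, at 0.811, and Epb41 at 0.799. The median of all 268 was -0.013. As shares of all counts, a scale without TMM, the rho of these 5 lay between 0.598 for Fech and 0.782 for Alas2. Dcaf12, for example, was at 101 ± 39.7 CPM in AG, 34.5 ± 31.5 in MG (SD, n = 6 each) and 50.8 ± 22.04 over the 5 GC libraries.

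Red cells also carry the microRNA miR-451a, which is processed without Dicer and is among the most abundant microRNAs of the erythroid lineage. Its mature sequence in RefSeq (GRCm38.p6, chr11:78073186-78073207, plus strand) is shown because the library kit favours RNAs of this length, with the seed, bases 2 to 8, in capitals.
miR-451a: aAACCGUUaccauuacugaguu
The count column was 0 for Mir451a in every library, but the RPKM column was not, and the reason is not given in the sources used here. RPKM of Mir451a was 74.9 to 1576 in AG (median 753), 68.6 to 335 in MG (median 133), and 122, 283, 24.7, 276 and 65.2 in GC replicates 1 to 5. AG libraries 1 to 5 were above all MG and GC libraries, at 339 or more, and AG 6 was within their range. Over the 17 libraries its rho with the summed adult globin RPKM was 0.19, a description over libraries that share their mapped-read totals. The rho between members in RPKM lay between 0.640 and 0.924. These values are not directly comparable, because the Mir451a RPKM has no counts behind it here and paralogs can share reads.

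**Figure D4:**
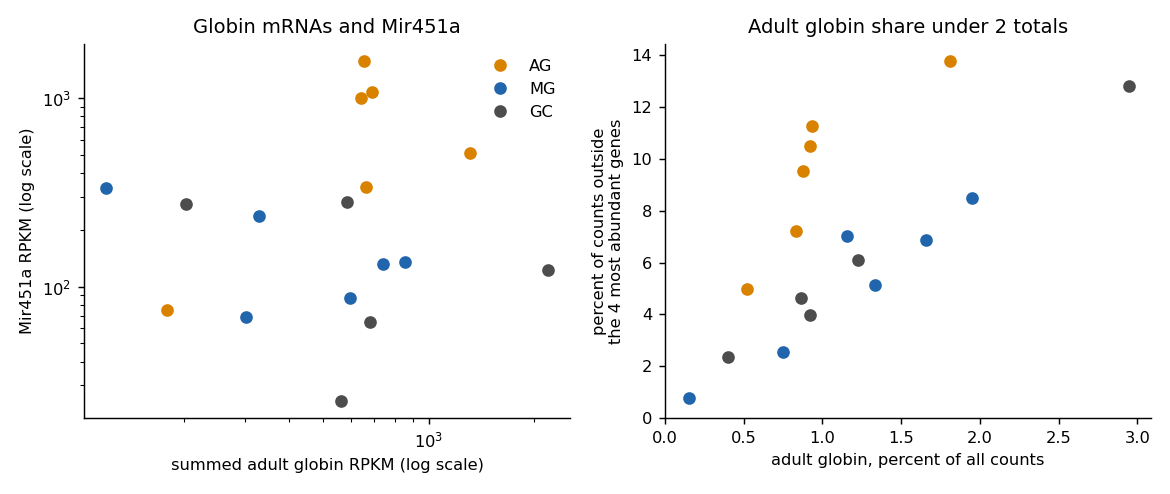
Left, Mir451a RPKM against the summed adult globin RPKM of each library, both on log scales. Right, adult globin as a percent of all counts (horizontal) and of counts outside the 4 most abundant genes (vertical), on linear axes from 0, with AG, MG and GC libraries coloured as in the key. Globin and Mir451a had a rho of 0.19, and AG libraries lie higher than the others on the vertical axis at a given percent of all counts.

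Markers of other blood and tissue cells were measured beside the globins. Platelet markers had counts for 12 of 12 genes, led by the chemokines Ppbp and Pf4 with 4963 and 475 reads over all libraries, and together held 0.016% to 0.248% of counts in AG, 0.064% to 0.578% in MG and 0.067% to 0.598% in GC. For MG against AG, Pf4 was higher in MG by 1.09 on the log2 scale (SE 0.43) and passed the criterion of the study, as 4.78% of the tested genes did with a higher level in MG. The 8 platelet markers tested had 6 positive and 2 negative log2 fold changes, with a median of 0.23 against 0.17 over all tested genes. With the total count alone, Pf4 was at 2.24 against a median of 1.27, and 4 of the 8 passed the criterion of the study, as did 132 of the 272 tested genes. Leukocyte markers were detected for 13 of 15 genes in the table at 0.008% to 0.044% of counts, led by Lyz2 and Cd74. Liver markers, led by Alb and Trf, and skeletal muscle markers, led by Ttn and Myh4, held 0.233% and 0.028% at most. Alb had 527 reads over all libraries, 294 of them in a single MG library. It passed the criterion of the study with a higher level against GC in both flight groups, at 476 ± 925 CPM in MG, 273 ± 608 in AG and 23.6 ± 10.09 in GC, but not in MG without MG 6, nor in AG without AG 6, with limma on RPKM or with the replicate block. DESeq2 gave no p-value for it. The part of these cell types in the globin values was not tested.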

How the data were processed

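Plasma cfRNA libraries were made with a small RNA kit because the RNA was degraded. The authors mapped the reads to mm10 in CLC Genomics Workbench 10.1.1 and deposited 2 columns used here for each gene, the raw read count and the RPKM, which divides by gene length and mapped reads. Strand setting and the handling of reads with several matches are not given in the sources used here. The TPM column was not used.

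Counts were tested in R 4.3.3 with edgeR 4.0.16 (quasi-likelihood F-test, two-sided, TMM scaling, filterByExpr), with all 17 libraries in a single fit without covariates and Benjamini-Hochberg adjustment over the 272 tested genes. The SE is the log2 fold change divided by the square root of F. Sums, ratios and shares of members were described without a test. Alternatives used relative log expression factors, no scaling factor, a table without the 4 most abundant genes, all genes with at least 5 reads, DESeq2 1.42.0, edgeR's exact test, limma 3.58.1 on log2(RPKM + 1), only the groups compared, a replicate block, summed paralogs, and each library left out. No library pair looked duplicated, with a chi-square of at least 5.46 per degree of freedom between libraries of a group.

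Named genes were the members, other globin genes with a count, red cell genes past the criterion of the study, the most counted genes of the other lists and the 6 genes most like the globin sum, of which 1 is not reported here. Members and lists were chosen with earlier results of these data known. P-values judge a difference between groups against the spread between the libraries, and intervals cover counting error only. Sequences are from the GRCm38 genome with GENCODE M21 and from RefSeq.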

Additional observations from a re-analysis of the deposited data

Results flagged for a closer look

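In 5 of 27 groups of values tested for a sample far from the others (Dixon's test), a library stood apart, where chance alone gives 1.35, about 1 in 20. GC 1 was apart from the other GC libraries for both beta genes, with Hbb-bs at 4722 CPM next to 2074 in the nearest library and Hbb-bt at 3240 next to 1575. AG 1 was apart for Hbb-bs, at 6399 CPM next to 3393, and for the percent of all counts held by adult globin, at 1.81% next to 0.933%. The alpha to beta ratio of MG 3, 2.86, was apart from that of the nearest MG library, 2.05. Without MG 3 the mean ratio in MG was 1.97.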

How the results depend on the processing

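No alternative brought a member past an adjusted p of 0.05, the lowest being 0.0600 for Hbb-bt in MG against AG without MG 4. The criterion of the study in place of the adjusted p gave 1 member for MG against AG and 1 for MG against GC, Hbb-bt in both. Of 108 alternative values for the members in each comparison, the sign held in 105 for MG against AG, 97 for MG against GC and 96 for AG against GC. With no scaling factor the sign turned for Hba-a1 (0.41), Hba-a2 (0.28) and Hbb-bs (0.53) in MG against AG and for Hba-a1 (-0.52), Hba-a2 (-0.13), Hbb-bs (-0.64) and Hbb-bt (-0.94) in AG against GC. With limma on RPKM it turned for Hba-a2 in MG against GC (-0.41) and for Hba-a1 (-0.34), Hbb-bs (-0.29) and Hbb-bt (-0.74) in AG against GC. With all genes of at least 5 reads it turned for Hba-a2 in MG against GC (-0.0048) and Hbb-bt in AG against GC (-0.16), and with paralogs summed for Hba-a1 in MG against GC (0.083). Without a library, MG against GC turned for Hba-a1 (0.039 without MG 6, 0.11 without GC 1), Hba-a2 (-0.22 without MG 4, -0.057 without GC 2) and Hbb-bs (0.080 without MG 5, 0.13 without MG 6, 0.45 without GC 1), and AG against GC for Hbb-bt (-0.15 without AG 1, -0.0015 without AG 4, -0.040 without GC 2, -0.022 without GC 5). In MG against GC the leave-one-out values reached -0.42 for Hba-a1 and -0.46 for Hbb-bs, both without MG 4, and 0.46 for Hba-a2 without GC 1. In MG against AG they ran for Hbb-bs from -0.95 without MG 4 to -0.19 without AG 1. In AG against GC they ran from 0.13 without AG 1 to 0.99 without GC 1 for Hbb-bs. For Hba-a1 they ran there from 0.34 without AG 1 to 0.82 without GC 1. The cause was not tested.

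Over all genes tested, 0 passed the adjusted p for MG against AG and 58 with no scaling factor, and 4 and 9 for AG against GC, with DESeq2 calling 9 and 8. The log2 ratio of the geometric group means of the summed level was -0.97 for MG against AG and -0.016 as a share of all counts, and 0.72 for AG against GC, against -0.16 as a share of all counts and -0.080 as summed RPKM. With Hbb-bs alone as beta globin, the alpha to beta ratio was 3.798 in AG, 2.89 in MG and 2.92 in GC.

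Whether replicate numbers pair the libraries is not known. The correlation of deviations between libraries with the same number ran from -0.472 to 0.593. The pairs of replicate 1 were at 0.464, 0.484 and 0.593. Libraries with different numbers were not compared, so these values cannot decide it. With the number as a block, 0 members passed the adjusted p in each comparison, and Hbb-bs in MG against GC turned to 0.074.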
